A study of Mus musculus with 12 samples.

Results

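The m6A landscape of induced neural stem cells (iNSCs) was described from the 3 peak lists of the immunoprecipitated libraries titled iNSC1, iNSC2 and iNSC3. Their members were every peak those lists hold, 45975 of the 118075 peaks in the 6 lists of the series. The iNSCs were mouse cells derived from spermatogonial stem cells (SSCs, germ cells that renew themselves and found sperm production), which had been grown on growth-arrested STO fibroblast feeders. SSCs were separated by differential plating, seeded on laminin, given 1 µM retinoic acid for 24 h, then kept in a neural medium containing 10 µM SB431542, an inhibitor of TGF-beta receptor kinases, and 20 ng/ml basic FGF. Strain, age and passage are not given in the labels used here. The series has 12 samples, and its 6 input libraries were not analysed here. MeDIP, an assay of DNA methylation, is what the series is titled and typed as, but its sample protocols describe pull-down of m6A from RNA. The peaks are taken as m6A here because of those protocols, and the files themselves do not settle it. The cell type field names the opposite cell type to the title in 12 of 12 samples, and the titles were followed. The replicates are numbered but not described as separate cultures, so the spread given below may be technical.

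N6-methyladenosine (m6A) is a methyl mark placed on adenosines of mRNA as it is made, by a nuclear complex built around METTL3 and METTL14. FTO and ALKBH5 can remove it, and proteins with a YTH domain bind it and affect splicing, translation and decay of the transcript. The mark is found mainly in the sequence context that has GGAC as its core, in long internal exons and near stop codons. In neural progenitors it is known for marking transcripts of transcription factors and for speeding their turnover. A gene without a peak may lack the transcript, the mark on it, or both.

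The 3 lists held 13913, 16002 and 16060 peaks (15325 ± 1223, SD, n = 3), which covered 10990, 11711 and 11504 kb. The lists carry no read counts, so depth is unknown. Each peak has the authors' score, which started at about 50, had a median of 386, 440 and 390, and stood at exactly 3100 in 14.5%, 17.1% and 15.8% of peaks. A score of 3100 or more is called the top score here. The median peak was 433, 397 and 368 bases wide, and the widest were 12800, 12800 and 12793 bases. Gene coordinates below are 1-based spans of RefSeq GRCm38.p6.

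Of 21887 protein-coding genes, 5757 had a peak in all 3 iNSC lists, or 26.3% of them. Another 1009 genes had one in 2 lists, 1078 in a single list and 14043 in none. The lists shared most of their genes: iNSC1 and iNSC2 had 6048 in common, iNSC1 and iNSC3 6015, and iNSC2 and iNSC3 6217, which is 80.9% to 81.8% of the genes in either list of a pair. The top score was reached in all 3 lists by 1433 genes, or 6.55% of all genes and 24.9% of those with a peak in all 3. The genes just below that line differed little from those on it. Ezr, which links membranes to actin, had best scores of 3100, 3096 and 3100, and 31 genes had a lowest score from 3000 to 3100.

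Genes with a peak in all 3 lists had long spans. Their median span was 31228 bases, against 11506 bases for genes with no peak. The share with a peak in all 3 lists was 8.41%, 22.8%, 34.1% and 40% in 4 equal groups of genes with spans up to 5670, 17169, 44337 bases and longer. The top score in all 3 lists was reached by 1.99%, 4.75%, 7.51% and 11.9% of these groups. Exon models were not used here, so most lists below are given with their median span. The shares of those lists can be read against both the share of all genes and that of genes of like span. Genes of like span are those of the group that holds the median span of the list, though some members of a list fall in other groups.

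The marker genes of neural stem cells gave a mixed picture. Of 30 genes on that list, 10 had a peak in all 3 lists (33.3%), against 26.3% of all genes and 22.8% of genes of like span (median 8483.5 bases). The top score in all 3 was reached by 7 (23.3%), against 6.55% of all genes, and the other 20 had no peak in any list. Pax6, a transcription factor of forebrain progenitors (chr2:105668896-105698410), had 3, 4 and 4 peaks, with best scores of 614, 557 and 308. These sat in 3 shared places, the strongest an 873-base region at chr2:105696270-105697142 near the end of the gene. Nes, which encodes the intermediate filament nestin (chr3:87971093-87980451), had 1, 1 and 2 peaks, and its best scores of 59.4, 116 and 198 stood at the 4.45, 21.0 and 35.0 percentile of their lists.

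Other transcription factors with a peak in all 3 lists included Zeb2, Zbtb18, Nr2f1, Nr2f2, Meis2 and Sox9, all at the top score, and Emx2, a patterning factor of the dorsal forebrain. Zeb2, a repressor of the neural crest and cortex, had 5, 5 and 4 peaks. Nr2f1 and Nr2f2, orphan receptors that pattern the cortex, had 3, 3 and 3 each. Sox9 was the only one of 19 Sox genes with a peak. Sox1, Sox2, Sox3, Hes1, Hes5, Msi1, Fabp7, Prom1 and Vim, which are all used to recognise neural stem cells, had none.

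Plxna2 and Mecom had strong peaks, but both were named as markers from earlier results of these data and give no independent check of the cell type. Plxna2, a semaphorin receptor of axon guidance (chr1:194619791-194816869), had 5, 6 and 5 peaks and the top score in each list. Of its shared regions, 2 reached 3100 in all 3 lists, 1 just inside the gene start (chr1:194619829-194620397) and 1 of 1262 bases. Mecom, a zinc finger transcription factor (chr3:29951296-30509759), had 4, 6 and 6 peaks, also at the top score.

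Markers of other cell types were measured in the same way. Of 26 neuronal genes (median span 11819 bases) none had a peak in all 3 lists, against 26.3% of all genes and 22.8% of genes of like span. Only Syn1 had one at all, in iNSC1. Tubb3, Dcx, Map2 and Mapt, which build the neuronal cytoskeleton, had none. Of 16 glial genes (median span 17701 bases), 2 had a peak in all 3 lists (12.5%), against 34.1% of genes of like span. That median is just above the 17169-base limit of the next shorter group, where the share was 22.8%. The 2 glial genes were the oligodendrocyte precursor genes Pdgfra (5, 4 and 5 peaks) and Cspg4 (2, 2 and 3 peaks), both at the top score. Gfap and S100b had no peak. Mesenchymal cells also express Pdgfra and Cspg4. Of 30 germ cell genes (median span 32637 bases), 2 had a peak in all 3 lists (6.67%), against 34.1% of genes of like span. These were Etv5 and Foxo1, while the germ cell genes Ddx4, Dazl and Zbtb16 had none. The SSC lists were longer, with 72100 peaks, and 28.4% of all genes had a peak in all 3 of them. There, 16 of the 30 germ cell genes had a peak in all 3, as did 15 of the 30 neural stem cell genes and 10 of the 26 neuronal ones. These values are set side by side, and the cell types were not tested against each other.

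Fibroblast genes carried peaks too. Of 24 feeder fibroblast genes, 11 had a peak in all 3 iNSC lists (45.8%), against 26.3% of all genes and 34.1% of genes of like span (median 33850.5 bases). The top score was reached by 5, among them Pdgfrb, the PDGF receptor of mesenchymal cells (2, 2 and 3 peaks), and Fbn1, a component of elastic microfibrils (1, 2 and 3 peaks). Each iNSC list had a peak in 50% to 54.2% of these genes, and Thy1, Lum, Dcn and Twist1 had none. In the SSC lists, 11 of the 24 also had a peak in all 3. The part of feeder cells in any iNSC peak was not tested, and it bears on Hox, TGF-beta, NF-kB and collagen genes below, which fibroblasts express too. Of the other lists, testis somatic cells (0 of 19), epithelium (0 of 20), endothelium (1 of 18, Eng) and immune cells (1 of 20, Cx3cr1) were near empty. Their median spans were 17404, 9535.5, 39483.5 and 19975.5 bases. Of genes of like span, 34.1%, 22.8%, 34.1% and 34.1% had a peak in all 3 lists.

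**Figure D1:**
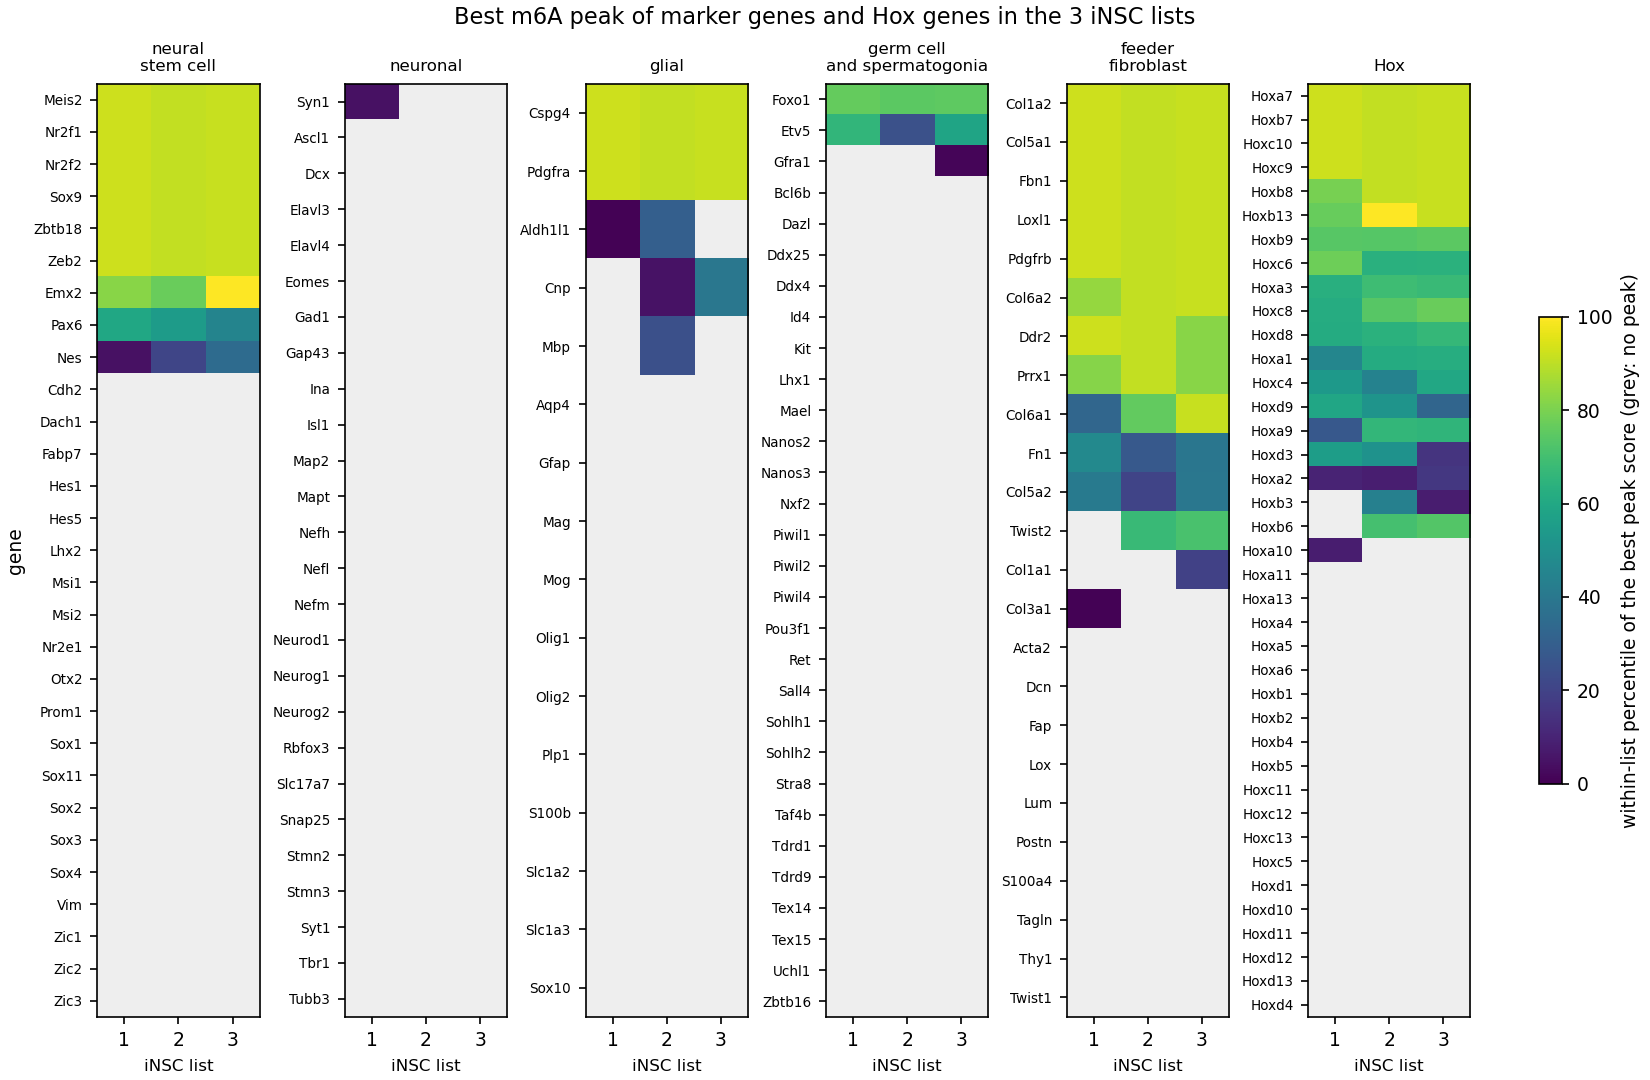
Best peak of genes of 5 marker lists and of the Hox genes (rows) in the 3 iNSC lists (columns). Colour is the percentile of the gene's best score within its own list and grey marks no peak; 11 fibroblast rows are coloured in all 3 columns, and no neuronal row is.

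Peaks lay at both ends of genes. Relative to the peak's strand, 23.3%, 23.8% and 21.3% of peaks had their centre in the last 2000 bases of the gene span (22.8% ± 1.34, SD, n = 3). That window holds 3.42% of the span bases of genes with a peak in all 3 lists. The first 500 bases held 9.70%, 7.35% and 12.0% of peaks (9.67% ± 2.31, SD, n = 3), against 0.857% of those span bases. Span bases include introns, while the libraries were made from poly(A) RNA. Exon models were not used, so the part of exon positions in these shares was not tested. When spans were cut into 10 equal bins, the last bin was the fullest, with 29.2% ± 1.60 (SD, n = 3), the first held 14.2% ± 2.91, and the second was the emptiest, with 3.96% ± 0.0417. In spans of at least 20000 bases, start peaks were concentrated in the first 500 bases, with 8.12% of peaks there and 1.67% in the next 500. The rise towards the end was broader. By peak centre, its highest 500-base bin was not the last one: it held 5.22% against 4.11% in the final bin. Peak width limits how near to a gene end a centre can lie, and this shape was not separated from width.

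**Figure D2:**
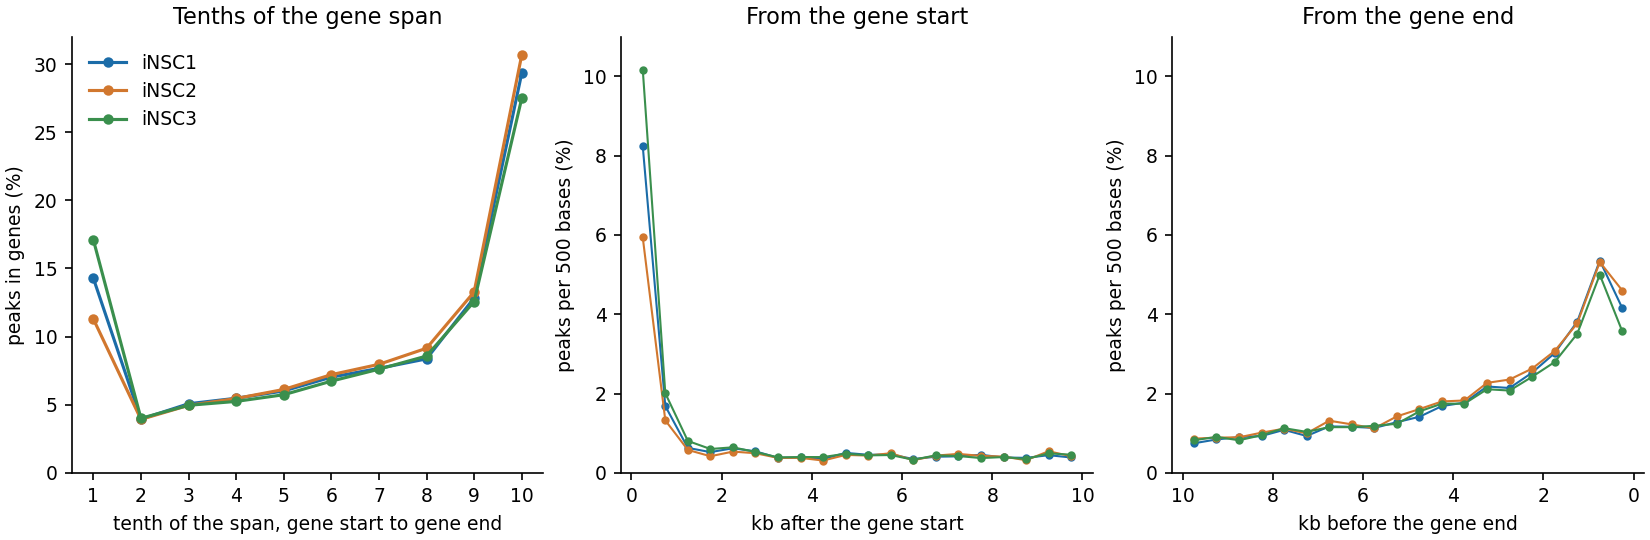
Left, share of iNSC peaks in each of 10 equal bins of the gene span. Middle and right, share of peaks per 500 bases after the gene start and before the gene end, for spans of at least 20000 bases; lines are the 3 lists, which lie close together except in the first bin, where iNSC3 is highest and iNSC2 lowest.

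The share of start peaks differed between the lists. Among the peaks not in a region of all 3 lists, 16.0%, 6.31% and 20.5% were in the first 500 bases, so start peaks outside the shared regions were a larger part of iNSC1 and iNSC3 than of iNSC2. The position also went with width. Of peaks 1000 bases or wider, 47.8% were in the last 2000 bases and 0.321% in the first 500. Of peaks under 200 bases, 1.86% were in the last 2000 bases and 11% in the first 500. A wide peak cannot have its centre within the first 500 bases unless it reaches past the start, which limits the start share of wide peaks. The same limit holds for the last 500 bases, near which wide peaks were common. Its part in the lower final bin and the broader rise towards the end was not tested.

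Genes fell into classes by where their shared regions lay. Of 5557 genes with a region called in all 3 lists, 2394 (43.1%) had one in the last 2000 bases but not in the first 500, 595 (10.7%) the reverse, 244 (4.39%) both and 2324 (41.8%) neither. Among the best start regions was that of Ski, a repressor of SMAD signalling, which had a region of 1041 bases at the top score (chr4:155221552-155222592) and another of 2472 bases near its end. Nrp2, a semaphorin co-receptor, had the top score in all 3 lists over its start (993 bases, chr1:62703285-62704277) and scores of 227, 1291 and 522 in its 3363-base end region. Il6st, the shared receptor of the IL-6 and LIF family, carried 1 region, of 4979 bases at its end (chr13:112503705-112508683), at the top score in all 3 lists.

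The RefSeq promoter table gave the sequence at the gene start for genes whose annotated start is the edge of the span, 10583 in all. A shared iNSC region ran over the first base of 455 of them. The GGAC core stood within the first 30 bases of 44 of these genes, and 6 of the 44 had the top score in all 3 lists. Their first 30 bases are shown because they are the strongest start regions with a possible methylation context at the 5′ end of the transcript. Each is on the gene's own strand, 5′ to 3′, GRCm38.p6, with GGAC in capitals.
Irf2bpl (chr12:86884785-86884814, minus): cgcgcggccaagccggGGACagcgcgagcc
Jun (chr4:95052193-95052222, minus): gttgagctcaggctggataaGGACtcagag
Chst14 (chr2:118926497-118926526, plus): ggagagaagagcggccgggcgGGACatccg
Ccnq (chr11:78751700-78751729, minus): gaGGACccccggagccggcctcggcgcgcc
Zc3h15 (chr2:83644578-83644607, plus): gctcccgccgagctgccGGACgccccgacg
Fkbp5 (chr17:28486120-28486149, minus): ggggcgGGACgacggcgggcgctgcccggc

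These regions differ in reach. Those of Irf2bpl, a transcriptional co-regulator, Jun, a subunit of AP-1, and Chst14, a sulfotransferase, were 4112, 3189 and 2089 bases wide. Peaks covered over 90% of these gene spans in each list, so the start is only one part of them. The region of Ccnq, a cyclin, was 1224 bases wide, and its span was not covered to over 90% in each list. Those of Zc3h15 (293 bases) and Fkbp5, a co-chaperone of steroid receptors (198 bases), were confined to the neighbourhood of the start. In the 50 bases after the start, GGAC was present in 19.6% of the 455 genes, 20.2% of genes with peaks only further in and 19.2% of all 10583. Its reverse complement GTCC was present in 20.0%, 20.9% and 17.4%. The first base was A in 29% of the 455 genes, 27.2% of genes with peaks only further in and 42.4% of all. Antibodies to m6A also bind the methylated adenosine next to the cap, and its part in the start peaks was not tested.

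Most genes carried few peaks. The mean was 2.11, 2.24 and 2.27 per gene with a peak (2.21 ± 0.0874, SD, n = 3), and 52.3%, 49.7% and 47.3% of those genes had 1. At the other end, 71, 100 and 91 genes had 10 or more, and 50 genes had at least 10 in each list. Of genes with a peak in all 3 lists, 2563 (44.5%) had the same number in each.

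**Figure D3:**
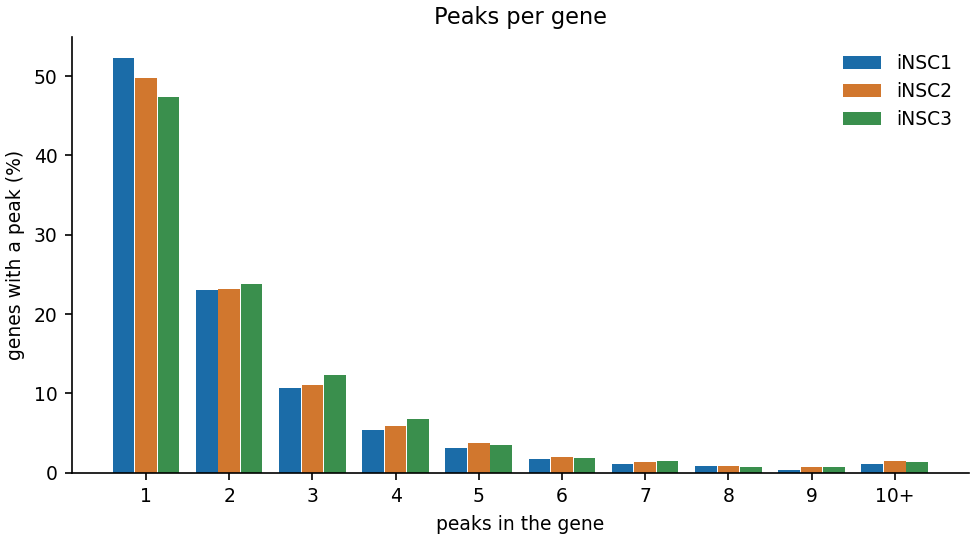
Share of genes with a peak (vertical axis, %) by the number of their peaks (horizontal axis, 10 or more pooled) in the 3 iNSC lists. Single-peak genes are 47.3% to 52.3% of each list, and iNSC1 has the most of them.

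The genes with the most peaks in all 3 lists were long ones. Akap9, a centrosomal anchor of protein kinase A, had 19, 21 and 22 peaks, and Syne2, a nuclear envelope nesprin, had 19, 20 and 21. Cep290, a protein of the ciliary base, had 23, 29 and 19, and Cenpe, the kinetochore kinesin, had 18, 25 and 19. No list was highest for all 4 of these genes. The 50 genes with at least 10 peaks in each list had a median span of 105834 bases.

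Peaks at gene ends were found in genes with few and with many peaks. Of genes with 1 peak, 50.1%, 54.4% and 46.9% had it in the last 2000 bases. Of genes with 2 to 4 peaks, 46.5%, 49.6% and 47.3% had at least 1 there, and of genes with 5 or more, 41.2%, 47% and 44.8%. The share was lowest for genes with 5 or more in each list, and the ranges over the 3 lists overlap. Genes with several peaks and a best score not tied within the gene numbered 2776, 3103 and 3243. Their best-scoring peak lay in the last 2000 bases in 24.9%, 27.3% and 27.9% of cases. Of the lower-scoring peaks of all genes with several peaks, 10.3%, 10.8% and 9.36% lay there. The best peaks were also wider, with a mean of the 3 medians of 827 bases against 185 for the lower-scoring ones.

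Some shared regions were very wide. Eppk1, which encodes epiplakin, had one of 10812 bases, with scores of 849, 2866 and 3100, and Map1a, a microtubule-associated protein, one of 8104 bases at the top score in all 3 lists. Another, of 10527 bases at chr7:143234694-143245220, was placed in Kcnq1 by position. It lies on the minus strand inside the span of the long non-coding RNA Kcnq1ot1 (chr7:143213111-143296547), which is transcribed antisense to Kcnq1. Its strand is thus that of Kcnq1ot1 and not that of the channel gene, where it was placed by position alone. Gvin1 shares near-identical copies, such as Gm4070, which had a region of the same 8158 bases, and its peaks are uncertain.

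By bases under top-score peaks, the leading genes were Zfhx3 (11628 bases in the lowest of the 3 lists), Map1b (10988) and Zfhx4 (10842). Zfhx3 and Zfhx4 are zinc finger homeobox factors expressed in developing neurons, and Map1b is a microtubule-associated protein of growing axons. Spen, a corepressor of Notch targets, and Mki67, which encodes the proliferation marker Ki-67, followed, with 5, 7 and 7 and 6, 7 and 8 peaks.

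Stronger peaks were shared more often. Merging peaks on the same strand gave 20373 regions, of which 10768 (52.9%) were in 3 lists, 3789 (18.6%) in 2 and 5816 (28.5%) in 1. At least 1 peak reached the top score in 28.7% of the regions in 3 lists, in 3.35% of those in 2 and in 0.980% of those in 1. A region in more lists holds more peaks that can reach it. Of the regions in 3 lists, 16.8% were at the top score in all 3. By list, 77.8%, 68.0% and 67.7% of peaks were in a region of all 3 lists. This was 34.9%, 20.0% and 23.1% in the lowest of 10 equal score bins and 98.0%, 96.6% and 96.0% at the top score. Of 10591 shared regions with 1 peak per list, 6755 (63.8%) had the same 2 edges in all 3 lists. How the edges were set is not given in the sources used here, so shared edges are no measure of precision.

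**Figure D4:**
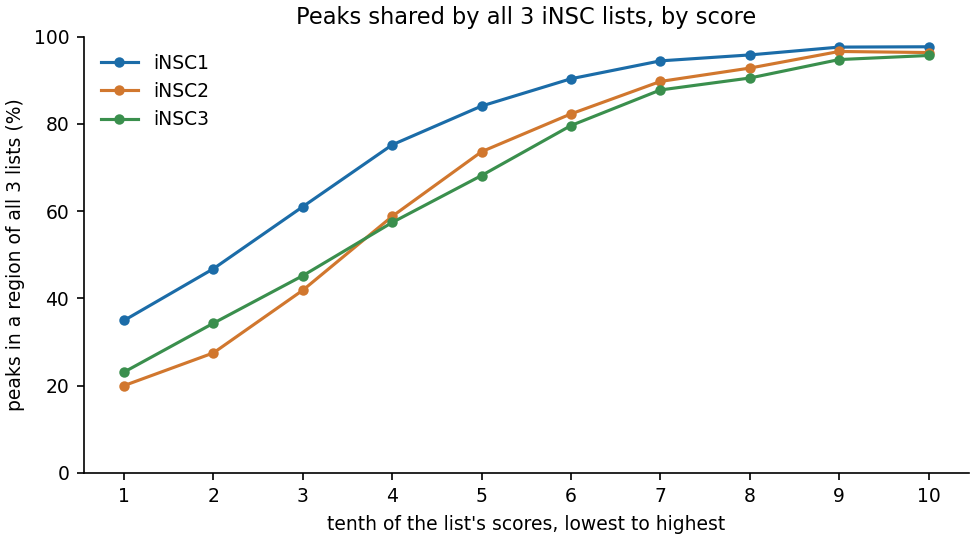
Share of peaks that lie in a region called in all 3 iNSC lists (vertical axis, %) by 10 equal bins of the score within each list (horizontal axis, lowest to highest). The lowest bin holds 20.0% to 34.9% and the highest 95.7% to 97.7%.

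Genes of the m6A pathway themselves carried peaks. Of 28 genes, 14 had one in all 3 lists (50%), against 26.3% of all genes and 34.1% of genes of like span (median 29806.5 bases). The top score was reached by 8 (28.6%, against 6.55% of all genes), and 8 more genes had a peak in 1 or 2 lists. Of the writer complex, the scaffold gene Zc3h13 had 12, 12 and 12 peaks and Virma 3, 9 and 6, both at the top score, and the RNA-binding adaptor gene Rbm15 had 2, 2 and 1. Mettl14 had 5, 5 and 4 peaks with scores of 143, 151 and 402, and Wtap had 6, 4 and 6. Mettl3, the catalytic subunit, had none. Of the readers, Ythdf1, Ythdf2, Ythdf3 and Ythdc1 were at the top score in all 3 lists, with 4, 4 and 4, 2, 2 and 2, 3, 3 and 3, and 5, 5 and 6 peaks, and Ythdc2 had none. In Ythdf1, named in the series title, the top score lay in a 1521-base region with the same edges in every list (chr2:180910687-180912207). The eraser gene Fto had a peak in iNSC1 and iNSC2 and Alkbh5 in iNSC2 and iNSC3.

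Among the 43 lists the highest shares belonged to histone methylation enzymes, NF-kB genes and chromatin remodellers. With only the better-scoring 50% of each list they were 54.2%, 40% and 66.7%, against 16.9% of all genes. NF-kB genes then stood below Polycomb (51.4%), Zfp (48.5%), mediator (45%) and CCR4-NOT (44.7%) genes. Of 48 histone methylation enzymes, 37 had a peak in all 3 lists (77.1%) and 16 the top score. Their median span was 65750 bases, and of genes of like span 40% had a peak in all 3. The H3K4 methyltransferase gene Kmt2c had 12, 14 and 11 peaks, Kmt2a 6, 8 and 9 and Ash1l 7, 8 and 7. Of 39 SWI/SNF and CHD remodellers 29 had a peak in all 3 lists (74.4%, median span 49237 bases), with a mean of 5.74 peaks per gene. The mean was 2.39 over all genes with a peak in all 3 and 3.26 over those in the longest span group. Chd7, which remodels enhancers in neural progenitors, had 9, 11 and 11 peaks, and Arid1a, a subunit of the BAF complex, had 5, 5 and 5. Of 40 mediator and coactivator genes 25 had a peak in all 3 (62.5%, median span 24833.5 bases), among them Ep300, a histone acetyltransferase, with 8, 8 and 7. Of 35 Polycomb genes 21 did (60.0%, median span 28271 bases), with Asxl1, Asxl2 and Kdm2b among those at the top score.

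Transcription factor families were unequal. The 367 Zfp zinc finger genes had a peak in all 3 lists in 235 cases (64.0%), with a median span of 18193 bases, near that of all genes. Hox genes, which set position along the body axis, had one in 17 of 39 (43.6%) at a median span of 3737 bases, where the share of all genes was 8.41%. Hoxa7, Hoxb7, Hoxc9 and Hoxc10 were at the top score, and Hoxd10 to Hoxd13 had no peak. The top score of Hoxa7 was not in 1 shared region: its only region in all 3 lists scored 3100, 342 and 686. Klf genes had one in 9 of 17 (median span 11412 bases) and Fox genes in 15 of 44 (median span 5193.5 bases). Of 22 pluripotency genes, 4 had a peak in all 3 lists (18.2%, median span 8192.5 bases), 1 of them at the top score. This was below the 26.3% of all genes and the 22.8% of genes of like span. The 4 were Klf4, Klf5, Tbx3 and Dppa2, and Pou5f1, Nanog and Esrrb had no peak. Of 28 immediate early genes, which respond fast to growth factors and stress, 14 had a peak in all 3 lists (median span 4656 bases), with Jun, Junb, Jund and Egr1 at the top score and no peak in Fos. Read alone, iNSC1 had a peak in 50% of them, iNSC2 in 67.9% and iNSC3 in 78.6%.

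Signalling lists ranged widely. Of 43 TGF-beta and BMP genes 28 had a peak in all 3 lists (65.1%, median span 40566 bases). Smad3, the effector of TGF-beta, and Bmpr2, a BMP receptor, were at the top score, as were the SMAD repressors Ski and Skil, and the ligands Tgfb2, Bmp2 and Bmp4 had no peak. Of 35 Notch genes 19 did (54.3%, median span 31665 bases). Notch2 and the coactivators Maml1, Maml2 and Maml3 were at the top score, and the ligands Dll1, Dll3 and Jag1 had no peak. No shared region of Maml2 reached the top score in all 3 lists. Of 38 FGF and receptor kinase feedback genes 20 did (52.6%, median span 20817.5 bases), with 10, 11 and 9 peaks in the Ras exchange factor Sos1. The Wnt list had 16 of 46 (34.8%), near the 34.1% of genes of like span (median 32500 bases). Its co-receptor Lrp6 had 6, 9 and 8 peaks, and Wnt3, Wnt3a, Wnt4 and Wnt5a had none.

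The NF-kB list had 30 of 40 genes with a peak in all 3 lists (75%, median span 28080.5 bases). The top score was reached by 4 of the 40 (10%, against 6.55% of all genes), the adaptors and regulators Tab2, Ripk1, Traf6 and Cyld. Nfkbia, which encodes the inhibitor IkB-alpha and stands in the series title, had no peak in any iNSC list. Ccnd1, the cyclin D1 gene of the same title, had none either, and of 35 genes of the G1 to S transition 13 had a peak in all 3 lists (37.1%, median span 15844 bases). Axon guidance genes had one in 23 of 65 (35.4%) at a median span of 68988 bases, and hedgehog genes in 6 of 18 (33.3%) at 55348.5 bases, both below the 40% of all genes in the longest span group, with the receptor Ptch1 at 5, 5 and 4 peaks.

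Genes that handle RNA had shares above that of all genes. The list of CCR4-NOT and mRNA decay genes had 25 of 47 (53.2%, median span 44470 bases), with Tnrc6a, Tnrc6b and Tnrc6c, scaffolds of microRNA silencing, at the top score. Translation initiation factors had 21 of 46 (45.7%, median span 17408 bases), led by Eif4g3 with 14, 14 and 17 peaks, and splicing factors 20 of 51 (39.2%, median span 23196 bases). Cullin ligase genes, which mark proteins for degradation, had 24 of 38 (63.2%, median span 31894.5 bases).

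Genes of the ribosome, respiratory chain and proteasome had shares near those of genes of like span. Of 84 ribosomal protein genes 6 had one in all 3 lists (7.14%), Rpl4 and Rps26 at the top score, at a median span of 3179 bases, where the share of all genes was 8.41%. Of 102 respiratory chain and assembly genes 19 did (18.6%, median span 7369.5 bases), and of 39 proteasome genes 10 (25.6%, median span 12293 bases), where it was 22.8%. Replication-dependent histone genes, whose mRNAs end without a poly(A) tail, had 1 of 63, H2ac4, at a median span of 492 bases. Olfactory receptor genes had 2 of 1106, at 950.

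Collagen genes differed in number of peaks between the 3 libraries. Of 44, 13 had a peak in all 3 lists (29.5%, median span 114410 bases), also without iNSC replicate 3. This share was below the 40% of all genes in the longest span group. The list held 28 and 30 peaks in iNSC1 and iNSC2 and 56 in iNSC3. Col5a1, a fibrillar collagen gene, had 1, 2 and 9 peaks over 2645, 2819 and 3575 bases, and Col4a1, of basement membrane, had 1, 1 and 8 over 1442, 1460 and 2497 bases. Col6a3 had 5, 5 and 9. The feeder fibroblast list moved the same way, with 20, 22 and 39 peaks, partly through the same collagen genes. The source of this difference between libraries was not tested.

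**Figure D5:**
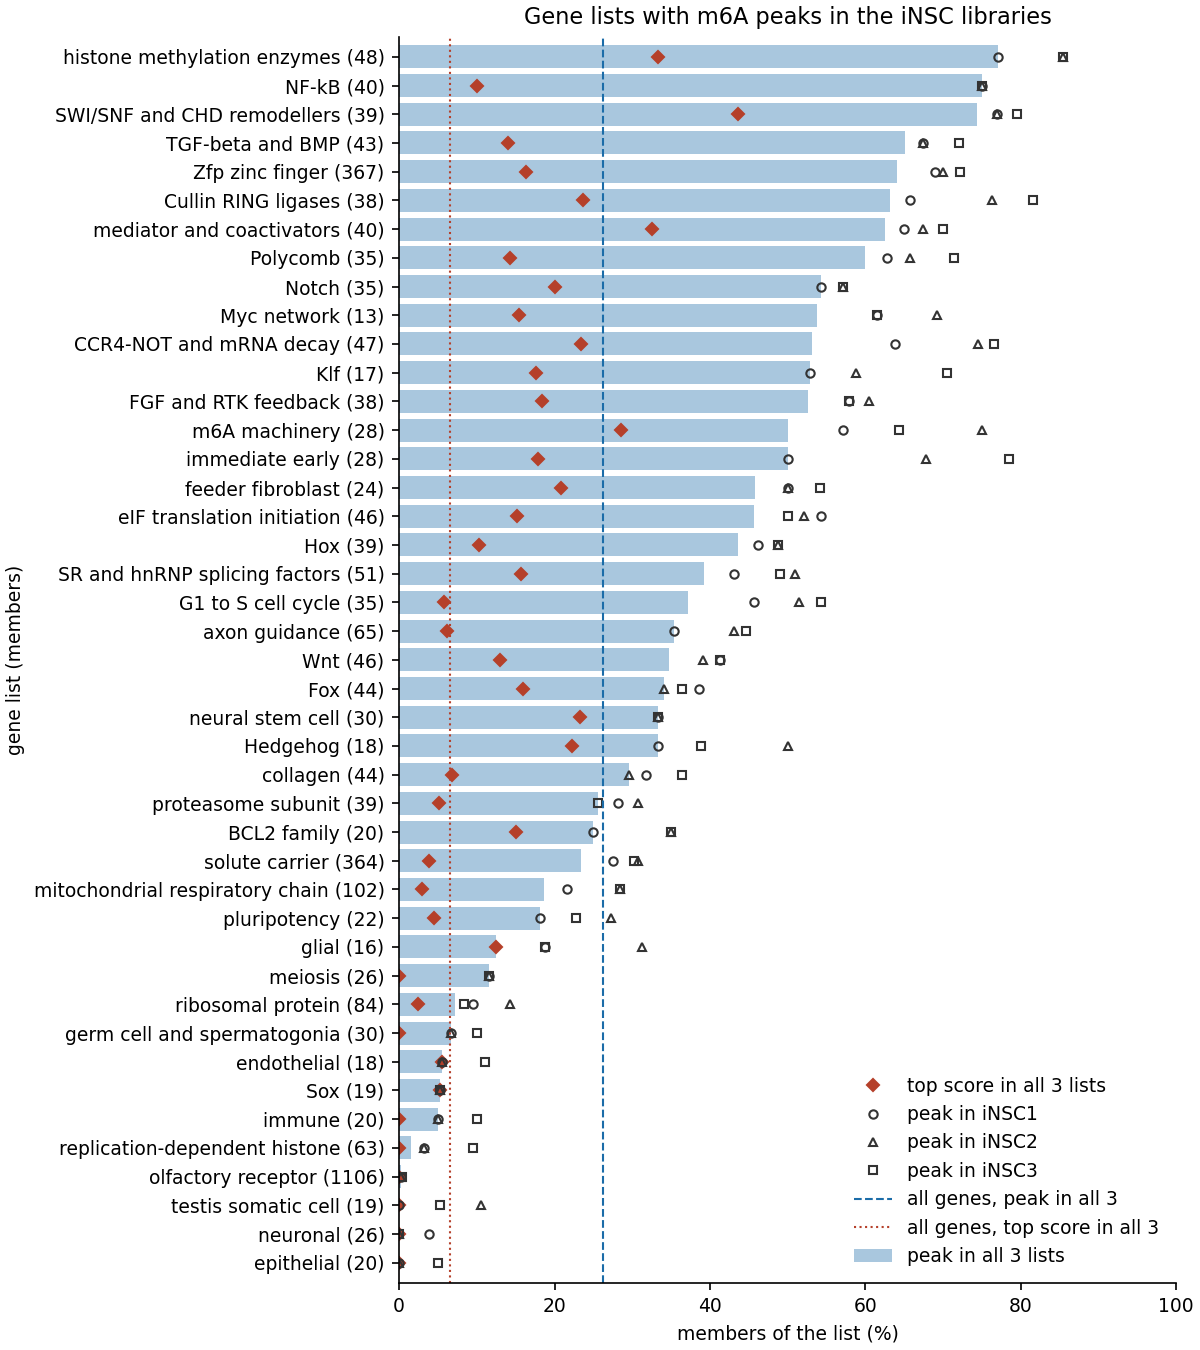
Share of the members of each of 43 gene lists with a peak in all 3 iNSC lists (bars), in each list alone (open symbols) and at the top score in all 3 (diamonds), with the shares over all genes as a dashed line at 26.3% and a dotted line at 6.55%. Histone methylation, NF-kB and remodeller genes reach over 74%, and neuronal, epithelial and testis somatic genes stand at 0.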

How the data were processed

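Antibody pull-down of m6A RNA followed by sequencing was done on 6 libraries, of which the 3 titled iNSC are described. Per the labels' protocols, poly(A) RNA in fragments of about 200 nt was used and libraries were directional. Tools listed in the submitters' processing notes are cutadapt 1.9.3 and HISAT2 2.0.4, with mm9 as the build. Which program called the peaks is not given in the sources used here. The authors deposited 1 peak list per library with a score per peak, of no stated unit, used here only to rank and filter within a list. Peak edges fell on GRCm38.p6 gene edges for 12.0%, 10.6% and 10.6% of peaks, against 0.0125% to 0.0187% after a shift of 10000 bases, so GRCm38 was used.

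A peak was counted for the protein-coding gene it overlapped by at least 1 base. Where spans overlapped, 406, 469 and 471 peaks were placed by strand, and 160, 179 and 178 ambiguous ones were left out. Gene strand came from RefSeq or from over 90% of the gene's peaks. Positions are along gene spans, introns included. The functions were tested on simulated data (Python 3.11.15, pandas 2.3.3). No groups were compared, so no statistical test was run.

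The gene lists, members and naming rule were chosen with earlier results of these data known. The rule took 15 genes by top-score bases, 15 by number of peaks, 10 by region width, 5 per gene end, up to 4 with and 4 without peaks per list, and the marker and title genes. Further marker, m6A pathway and pluripotency genes, Col4a1, Gm4070 and the genes of the printed sequences were named after their values were seen. Some genes selected this way are not reported or drawn here. Lists were also read at stricter scores, equal length, other windows and overlaps, and without each replicate.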

Additional observations from a re-analysis of the deposited data

How the results depend on the processing

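No paired analysis was possible because the results come from no test between groups. Leaving out each replicate in turn gave 6015 to 6217 genes with a peak in every list left, 1477 to 1701 genes at the top score, 2.18 to 2.26 peaks per gene, 22.3% to 23.6% of peaks in the last 2000 bases, 8.52% to 10.8% in the first 500 and 11905 to 12289 shared regions. The same step gave 0% to 5.26% for testis somatic genes and 1.59% to 3.17% for replication-dependent histone genes, the higher value each time without replicate 1. A peak in at least 2 of 3 lists gave these same higher values, 5.26% and 3.17%, and 25% for glial genes. The better-scoring 50% of each list moved the most: 3697 genes with a peak in all 3 (16.9% of all genes), 1.66 peaks per gene, 27.6% in the last 2000 bases and 5671 shared regions. The share of all genes fell from 26.3% to 16.9%, and most lists fell with it. Neural stem cell genes went to 26.7%, m6A pathway genes to 39.3% and Notch genes to 40%. Among the larger falls, relative to the share in the full lists, were TGF-beta and BMP (39.5%), FGF (28.9%), Hedgehog (22.2%) and Hox genes (28.2%). Others were G1 to S (17.1%), NF-kB (40%), splicing factors (25.5%), translation initiation (21.7%), Cullin ligases (36.8%) and Myc network genes (30.8%). So were ribosomal (3.57%), proteasome (15.4%), collagen (18.2%), solute carrier (15.1%), olfactory receptor (0.0904%), germ cell (3.33%), meiosis (3.85%) and immune genes (0%). Lists at the length of the shortest gave 2.11 peaks per gene, and peaks of at least 100 bases gave 2.02 peaks per gene and 25.3% in the last 2000 bases. Windows of 1000 and 3000 bases at the gene end held 14.2% and 28.8% of peaks, windows of 200 and 1000 bases at the start 6.40% and 12.1%, and spans of at least 10000 bases had 19.0% in the last 2000. Leaving out the peaks on the strand opposite to their gene, a setting chosen after seeing the data, left 5745 genes with a peak in all 3 lists. No peak placed in Kcnq1 was counted as opposite, because no RefSeq strand was at hand for that gene. Depth is unknown, so a missing peak may be a matter of reads.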

Other observations

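Solute carrier genes, the transporters of small molecules, had a peak in all 3 iNSC lists in 85 of 364 cases (23.4%, median span 28619 bases). This was below the 26.3% of all genes and the 34.1% of genes of like span, and 14 were at the top score. Among the latter were the zinc transporters Slc30a1, with 2, 2 and 2 peaks, and Slc30a4, with 2, 3 and 3. In the Myc network 7 of 13 genes had a peak in all 3, with 8, 9 and 10 in Mga, and Myc itself had 1 peak per list with scores of 493, 3100 and 2971. Of 20 BCL2 family genes, which control apoptosis, 5 had a peak in all 3 (25.0%, median span 14021 bases). This was near the 26.3% of all genes and the 22.8% of genes of like span. Bcl2, Mcl1 and Bcl2l1 were at the top score, though no shared region of Bcl2 reached it in all 3 lists. Bbc3 had a shared region with scores of 2777, 3100 and 3100, and Bax and Bak1 had no peak. Of 26 meiosis genes 3 had a peak in all 3 lists (11.5%, median span 35835 bases), against 34.1% of genes of like span. Sycp1 had 5, 2 and 1 peaks with scores of 3100, 3070.5 and 3100 over only 374, 164 and 105 bases. The shared regions of Mlh3 (103, 269 and 213) and Prdm9 (205, 148 and 72.0) scored lower, and Sycp2 and Sycp3 had no peak. By chromosome, the share of genes with a peak in all 3 lists was 14.5% on X and 31.6% on 8.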
